A study of Mus musculus with 6 samples.

Results

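The stress granule and messenger ribonucleoprotein (mRNP) partner genes described here are 10 genes, G3bp1, G3bp2, Caprin1, Fmr1, Fxr1, Fxr2, Tia1, Tial1, Atxn2 and Ddx6, out of 51733 gene symbols counted in the series. They were chosen by name, as genes of proteins found in stress granules or P-bodies that share mRNPs with Ybx1, and all 10 had counts in all 6 libraries. RNA was taken from neural progenitor cells (NPCs) of E13.5 mouse neural tubes, which were sorted for Sox2, a transcription factor of neural stem cells. The 3 control libraries came from wildtype embryos, which the study calls siblings. The 3 Ybx1-KO libraries came from embryos homozygous for the Ybx1 tm1Ley null allele. The study describes its Ybx1-KO mice as back-crossed to C57BL/6. Per the study's methods the cells were sorted by a Sox2-eGFP reporter allele, listed on a mixed stock, and embryos of both sexes were used. Whether a library holds 1 embryo or a pool is not given in the sources used here. Libraries are named control 1 to 3 and Ybx1-KO 1 to 3, and the numbers pair nothing. The titles of controls 1 and 2 share a number, and so do those of Ybx1-KO 1 and 2, with no word on what it means. No number is shared between control and Ybx1-KO titles, and the title of Ybx1-KO 3 carries none. If the number marks a litter, the libraries are not all independent. Litter and genotype could then not be told apart among the numbered libraries. The p-values measure only the spread between these samples.

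Cells store and silence mRNA in mRNPs, in which RNA-binding proteins coat the transcript. Under stress, when translation initiation stops, G3BP proteins gather untranslated mRNPs into stress granules together with CAPRIN1, TIA proteins and the fragile X family. P-bodies are related granules that hold DDX6 and the decapping and decay enzymes. YBX1 is itself an abundant mRNA-coating protein that enters these granules, and FMRP and its relatives are best known for controlling translation of neuronal mRNAs.

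Ybx1, the deleted gene, was measured first. It stood at 235, 523 and 301 CPM (a gene's count relative to the size of its library, scaled by the TMM method) in the controls and at 124, 54.5 and 9.51 CPM in the Ybx1-KO libraries. Every Ybx1-KO library was below every control, but Ybx1-KO 1 kept 1112 counts and the other two kept 533 and 68. The log2 fold change of Ybx1 was -2.49 (SE 0.68), and its p, adjusted by Benjamini-Hochberg over all genes tested in the quasi-likelihood fit of edgeR, was 0.30. Ybx1 was called in 5 of the 24 alternative settings: DESeq2 (adjusted p of 0.024), edgeR with no filter on low counts (0.021), edgeR without Ybx1-KO 1 (0.041, and 8.6e-05 with the filter applied again) and edgeR without Ybx1-KO 2 with the filter applied again (0.013). Like every level given here it is a share of a library's RNA, in which fewer cells of a type and less RNA per cell cannot be told apart.

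The libraries differ in depth and in what surrounds the genes. Controls held 20841990 to 23883542 counts on genes and the Ybx1-KO libraries 4743279 to 13321952, the shallowest being Ybx1-KO 3. That library also had 8.24 read pairs outside genes for each count on a gene, against 1.41 to 2.00 in the other libraries. In it, 1498 odorant, vomeronasal and taste receptor genes, which NPCs are not known to use, held 4257 CPM in all, against 20.9 to 91.2 CPM elsewhere. The 8 NPC markers (among them Sox2, Nes and Pax6) were present in every library, at a summed 1496 to 1581 CPM in controls and 1140 to 1944 CPM in Ybx1-KO. Most of each sum was Fabp7 and Vim. By sign, 6 of the 8 had a positive log2 fold change and 2 a negative one. Only Nes did not overlap between the groups, at 63.0, 129 and 52.6 CPM in controls and 283, 213 and 165 CPM in Ybx1-KO. DESeq2 called Nes, and edgeR with all libraries did not. Neuron markers (8 genes, with Tubb3 and Dcx) summed to 3049 to 4586 CPM in controls and 1269 to 3376 CPM in Ybx1-KO. By sign, 6 of these 8 were negative and 2 positive, and 2, Snap25 and Syt1, were lower in Ybx1-KO without overlap. Snap25 stood at 111, 161 and 167 CPM in controls and 50.8, 79.7 and 50.9 CPM in Ybx1-KO. DESeq2 called Snap25 as well. Mesenchyme markers (6 genes, led by collagens) summed to 863, 128 and 212 CPM in controls and 106, 118 and 75.3 CPM in Ybx1-KO. Every Ybx1-KO library was below every control, and control 1 was far above the rest. All 6 had a negative log2 fold change, 5 with an unadjusted p under 0.05 in edgeR, which called 0. DESeq2 called Dcn and Lum. With no filter on low counts, edgeR called these and Col1a1 and Col3a1. Erythroid markers (7 genes) ranged from 472 to 1151 CPM in controls and from 152 to 886 CPM in Ybx1-KO. Of these 7, 5 had a negative and 2 a positive log2 fold change, and DESeq2 called Hbb-bs. Endothelial markers (4 genes) ranged from 17.6 to 39.1 CPM in controls and from 11.3 to 33.6 CPM in Ybx1-KO. Microglia and macrophage markers (5 genes) ranged from 8.52 to 28.7 CPM in controls and from 3.46 to 36.7 CPM in Ybx1-KO. The part of these other cells and of this background in the results was not tested.

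Because 7 of the 10 genes have a paralogue among them, the first question was whether their reads can be told apart. The sequences below are the longest identical stretches, in capitals, between the coding sequences of the 5 pairs of paralogues in GENCODE M21 (GRCm38), with up to 12 flanking bases of each gene in lower case, and they show how soon the paralogues part. The pair G3bp1 and G3bp2 shares its first 17 coding bases:
G3bp1: ATGGTTATGGAGAAGCCtagtcccctgct
G3bp2: ATGGTTATGGAGAAGCCcagtccgctgct
Fxr1 and Fxr2 share a run of 20 bases, at coding bases 181 to 200 of Fxr1 and 211 to 230 of Fxr2:
Fxr1: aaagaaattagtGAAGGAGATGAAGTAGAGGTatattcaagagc
Fxr2: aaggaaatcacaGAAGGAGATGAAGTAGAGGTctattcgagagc
Fmr1 and Fxr1 share 14 bases, at coding bases 1498 to 1511 of Fmr1 and 1315 to 1328 of Fxr1:
Fmr1: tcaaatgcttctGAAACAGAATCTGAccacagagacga
Fxr1: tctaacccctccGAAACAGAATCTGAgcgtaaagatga
Fmr1 and Fxr2 share 14 bases, at coding bases 22 to 35 of Fmr1 and 52 to 65 of Fxr2:
Fmr1: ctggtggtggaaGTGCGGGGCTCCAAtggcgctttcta
Fxr2: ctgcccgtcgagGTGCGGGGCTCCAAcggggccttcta
Tia1 and Tial1 share 17 bases, at coding bases 316 to 332 of Tia1 and 340 to 356 of Tial1:
Tia1: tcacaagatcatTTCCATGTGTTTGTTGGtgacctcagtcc
Tial1: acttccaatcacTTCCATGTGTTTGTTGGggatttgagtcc
None of these runs comes near the read length of 100 bases. Of all 100-base windows of the members' transcripts, none in Caprin1, Fxr1, Fxr2, Tial1 or Atxn2 recurred in another annotated gene. The shares were 0.33% in Fmr1, 1.53% in Tia1, 1.71% in Ddx6 and 2.31% in G3bp1, the last through Gm5913, which held 0 to 8 counts a library.

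G3bp2 was the exception, with 20.9% of its windows found in Gm26582. That gene lies on the opposite strand and shares 2050 of the 8659 exon bases of G3bp2. Gm26582 held 5310, 8779 and 4472 counts in the controls and 1915, 2147 and 886 in Ybx1-KO, with a log2 fold change of -0.66 (SE 0.45), close to that of G3bp2. The strand setting of the counting is not given in the sources used here. Among 221 genes of at least 300 exon bases that lie wholly inside exons of the other strand, 120 to 181 a library held counts, which counting without strand would have set aside as ambiguous.

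Most of the 10 genes averaged lower in Ybx1-KO and Fxr2 higher, but none was called, and the smallest adjusted p among them was 0.44. A call required a change of more than 1.5-fold together with an adjusted p under 0.05. This was the same for the whole table: edgeR called 0 of the 21329 genes tested (0%), although 2393 (11.2%) had an unadjusted p under 0.05. Voom in limma also called 0 genes. The study, by voom with the same thresholds, reported genes changed in both directions, and the source of the difference was not tested. DESeq2 called 118 genes higher and 96 lower, and 0 of the 10. Of the 10 members, 1 was higher with an unadjusted p under 0.05 in edgeR (Fxr2), where 1484 of the 21329 genes tested were. Lower with such a p were 0 of the 10, where 909 of the 21329 (4.26%) were. By sign, 8 members had a negative log2 fold change and 2 a positive one, against 38.7% negative among all genes tested. Their median log2 fold change was -0.47, against 0.31 for all genes tested, and 9 of the 10 lay below that 0.31. The all-gene median depends on weakly expressed genes: with only genes above 1 CPM in 3 libraries it was 0.075, and the members' median was then -0.37. It also depends on Ybx1-KO 3: without that library the all-gene median was -0.16 and the members' median -0.43, a gap of -0.27 in place of -0.78, and 6 of the 10 lay below the all-gene median.

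**Figure D1:**
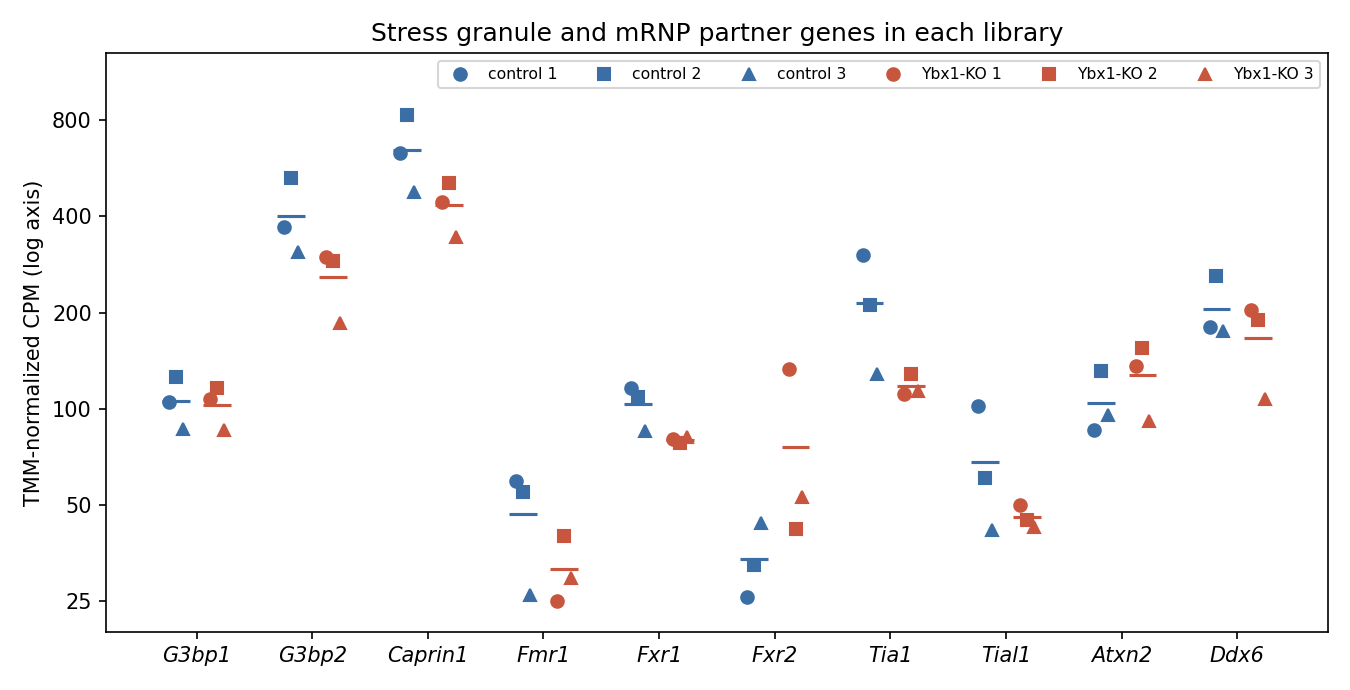
TMM-normalized CPM (log axis) of each of the 10 genes in each library, controls in blue and Ybx1-KO in red, with a marker shape for each library and a horizontal line at the group mean. The groups are apart only for G3bp2 and Fxr1, the triangle of control 3 is the lowest control for 8 genes, and Ybx1-KO 1 stands alone for Fxr2 at 134 CPM.

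Library by library, 2 of the 10 genes, G3bp2 and Fxr1, had all Ybx1-KO libraries below all controls, beside 8.17% of all genes tested. None had all Ybx1-KO libraries above all controls, beside 4.99% of all genes. On the TMM scale, control 3 was the lowest control for 8 of the 10 genes and Ybx1-KO 3 the lowest Ybx1-KO library for 6. The TMM factors were 1.06, 0.73 and 1.51 in Ybx1-KO 1 to 3 and 0.91 to 1.02 in controls. Relative to total counts alone, Ybx1-KO 3 was the highest Ybx1-KO library for G3bp1, Caprin1, Fmr1, Fxr1, Tia1 and Tial1. It was then the lowest Ybx1-KO library for no member. Control 3 was also the only library without clear Y-linked transcripts, with 1 to 3 counts each of Ddx3y, Eif2s3y, Kdm5d and Uty against 78 to 1575 elsewhere, genes named after their values were seen. The part of sex in the members' values was not tested. Without control 3 the number of genes apart rose from 2 to 6, with Caprin1, Fmr1, Tia1 and Tial1 joining, where 14.2% of all genes were apart in that direction. Without Ybx1-KO 2 it was 4, where 15.5% of all genes were. The summed level of the 10 genes was 1930 ± 442 CPM (SD, n = 3) in controls and 1440 ± 264 CPM (SD, n = 3) in Ybx1-KO, with 1 of the controls (control 3, at 1467 CPM) below 2 of the Ybx1-KO libraries.

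G3bp1 and G3bp2 encode the RasGAP SH3-binding proteins, the RNA-binding scaffolds on which stress granules assemble. G3bp1 (ENSMUSG00000018583.5, GRCm38 chr11:55469685-55504838, plus strand) stood at 105, 126 and 86.5 CPM in the controls and at 107, 116 and 85.6 CPM in Ybx1-KO. The libraries of both genotypes covered nearly the same range, and the log2 fold change was -0.038 (95% interval -0.84 to 0.77), with a sign that turned under other scalings. G3bp2 (ENSMUSG00000029405.16, chr5:92052146-92083719, minus strand) stood at 370, 528 and 309 CPM in the controls and at 299, 290 and 186 CPM in Ybx1-KO. All Ybx1-KO libraries were below all controls on the TMM scale, though Ybx1-KO 1 was only just below control 3. Relative to total counts alone, Ybx1-KO 1 at 316 CPM was above control 3 at 286 CPM. The log2 fold change of G3bp2 was -0.64 (SE 0.45, 95% interval -1.59 to 0.32, adjusted p of 0.51 in edgeR).

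Caprin1 encodes the partner protein that binds G3BP and joins it in granules. Caprin1 (ENSMUSG00000027184.14, chr2:103762941-103797649, minus strand) stood at 630, 833 and 476 CPM in the controls and at 445, 510 and 346 CPM in Ybx1-KO. The groups overlapped through control 3 and Ybx1-KO 2. Its log2 fold change was -0.58 (SE 0.47, 95% interval -1.58 to 0.43), with an adjusted p of 0.57 in edgeR.

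Fmr1, Fxr1 and Fxr2 encode the fragile X protein FMRP and its autosomal paralogues, polyribosome-associated RNA-binding proteins. Fmr1 (ENSMUSG00000000838.17, chrX:68678541-68717963, plus strand) stood at 59.5, 54.8 and 26.1 CPM in the controls and at 25.00, 40.0 and 29.5 CPM in Ybx1-KO. Control 3 fell inside the Ybx1-KO range and the other two controls lay above it, for a log2 fold change of -0.57 (SE 0.40, adjusted p of 0.52 in edgeR). Fmr1 was the member with the fewest counts in Ybx1-KO 3, at 211, of which 15.6% equalled the receptor-gene background per exon base. Fmr1 is X-linked, and Xist, the RNA of the inactive X, stood at 734, 3.04 and 479 CPM in the controls and at 4.91, 91.6 and 20.3 CPM in Ybx1-KO. Control 1 was the highest library for both Fmr1 and Xist, and control 2, next for Fmr1, was the lowest for Xist. Besides its Xist, control 1 held 428 to 1262 counts of each Y-linked gene named above. Ybx1-KO 2 held 896 counts of Xist beside 121 to 349 of each of them. Whether these libraries hold cells of both sexes was not tested.

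Fxr1 (ENSMUSG00000027680.15, chr3:34019943-34070322, plus strand) stood at 116, 109 and 84.9 CPM in the controls and at 80.1, 78.1 and 81.4 CPM in Ybx1-KO. On the TMM scale the Ybx1-KO values lay close together and below all controls, control 3 being the nearest. Relative to total counts alone they stood at 84.6, 57.3 and 123 CPM, against 118, 99.0 and 78.7 CPM in the controls. Ybx1-KO 3 was then above all controls. The log2 fold change of Fxr1 was -0.37 (SE 0.37, 95% interval -1.15 to 0.41), with an adjusted p of 0.64 in edgeR.

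Fxr2 (ENSMUSG00000018765.5, chr11:69632990-69653297, plus strand) was the member with the lowest unadjusted p, and moved the other way. It stood at 25.6, 32.4 and 43.7 CPM in the controls and at 134, 41.9 and 52.9 CPM in Ybx1-KO. Ybx1-KO 1, with 1197 counts, was far above every other library, and Ybx1-KO 2 was below control 3. The log2 fold change of Fxr2 was 1.17 (SE 0.45, 95% interval 0.21 to 2.13), with an adjusted p in edgeR of 0.44 (unadjusted p of 0.020). It was 0.47 without Ybx1-KO 1, and without Ybx1-KO 2 the adjusted p in edgeR was 0.077. Fxr2 also has the shortest union exon length of the members, 3766 bases, where the median member has 8347.

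**Figure D2:**
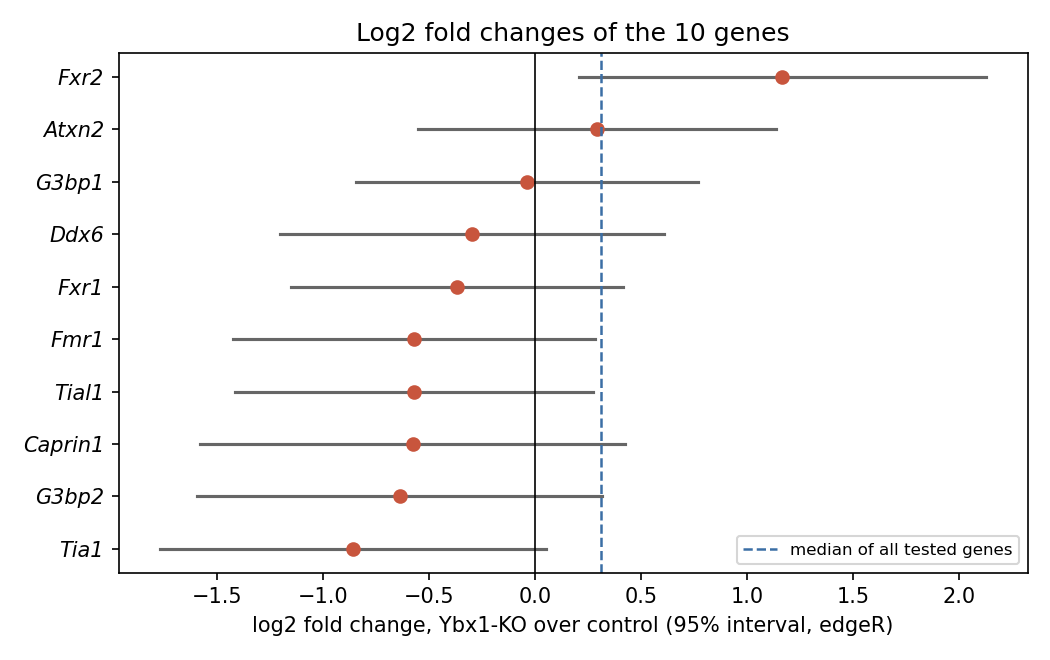
Log2 fold change of each of the 10 genes, Ybx1-KO over control, with its 95% interval from edgeR on 3 libraries a group, the black line at 0 and the dashed line at the median of all tested genes (0.31). The interval lies above 0 for Fxr2 (0.21 to 2.13) and holds 0 for the other 9 genes.

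Tia1 and Tial1 encode the paired translational silencers and splicing regulators TIA1 and TIAR. Tia1 (ENSMUSG00000071337.11, chr6:86404219-86433405, plus strand) had the lowest log2 fold change of the members, -0.86 (SE 0.43, 95% interval -1.77 to 0.049), with an adjusted p of 0.45 in edgeR. It stood at 303, 211 and 128 CPM in the controls and at 111, 129 and 114 CPM in Ybx1-KO. The controls were widely spread and control 3 was level with Ybx1-KO 2. Tial1 (ENSMUSG00000030846.15, chr7:128439777-128461717, minus strand) stood at 102, 60.6 and 41.7 CPM in the controls and at 50.1, 44.9 and 42.5 CPM in Ybx1-KO. Control 3 was the lowest of all libraries, and the log2 fold change was -0.57 (SE 0.40, adjusted p of 0.51 in edgeR). Tia1, Tial1, Fmr1 and Fxr1 all had their highest value in control 1, the library with the most mesenchyme markers.

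Atxn2 encodes ataxin-2, a poly(A)-binding-protein partner, and Ddx6 the DEAD-box helicase of P-bodies that acts in translational repression and decapping. Atxn2 (ENSMUSG00000042605.16, chr5:121711337-121816493, plus strand) stood at 85.7, 132 and 95.4 CPM in the controls and at 136, 154 and 91.6 CPM in Ybx1-KO. Ybx1-KO 3 fell among the controls while the other two were above them, for a log2 fold change of 0.29 (SE 0.40, adjusted p of 0.74 in edgeR). Ddx6 (ENSMUSG00000032097.10, chr9:44604892-44640731, plus strand) stood at 180, 261 and 175.02 CPM in the controls and at 204, 190 and 107 CPM in Ybx1-KO. Ybx1-KO 1 and 2 lay inside the control range and Ybx1-KO 3 below it, and the log2 fold change was -0.30 (SE 0.43, adjusted p of 0.75 in edgeR).

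Ratios between paralogues within a library do not depend on how libraries are scaled. Of 5 ratios compared, 3 did not overlap between the groups. Each of these reached an exact permutation p of 0.10 (two-sided), the smallest that 3 against 3 allows, with an adjusted p over the 5 ratios of 0.17. How often ratios of other gene pairs do not overlap was not tested. The ratios among Fmr1, Fxr1 and Fxr2 share genes, so the 5 are not independent. The count ratio of G3bp1 to G3bp2 was 0.284, 0.239 and 0.280 in the controls and 0.359, 0.401 and 0.460 in Ybx1-KO. Every Ybx1-KO library held more G3bp1 for its G3bp2 than any control, a shift of 1.52-fold, or 0.60 on the log2 scale, from -1.91 ± 0.14 to -1.31 ± 0.18 (SD, n = 3). It stayed between 0.51 and 0.69 when any single library was left out. The Fxr2 to Fxr1 ratio was 0.221, 0.297 and 0.515 in the controls and 1.67, 0.537 and 0.649 in Ybx1-KO. Fxr1 outnumbered Fxr2 in every library but Ybx1-KO 1, and control 3 was only just below Ybx1-KO 2. The log2 shift of 1.37 became 0.87 without Ybx1-KO 1.

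The Tia1 to Tial1 ratio was 2.97, 3.48 and 3.08 in the controls and 2.22, 2.87 and 2.67 in Ybx1-KO. Tia1 held more counts than Tial1 in every library, and the log2 shift was -0.30, smaller than that of the other two. The remaining ratios overlapped between the groups. Fmr1 to Fxr1 was 0.513, 0.503 and 0.308 in the controls and 0.312, 0.512 and 0.363 in Ybx1-KO, a log2 shift of -0.15 (exact permutation p of 0.90, adjusted p 0.90). Fmr1 to Fxr2 was 2.32, 1.69 and 0.597 in the controls and 0.187, 0.954 and 0.558 in Ybx1-KO, a log2 shift of -1.52 (exact permutation p of 0.20, adjusted p 0.25).

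**Figure D3:**
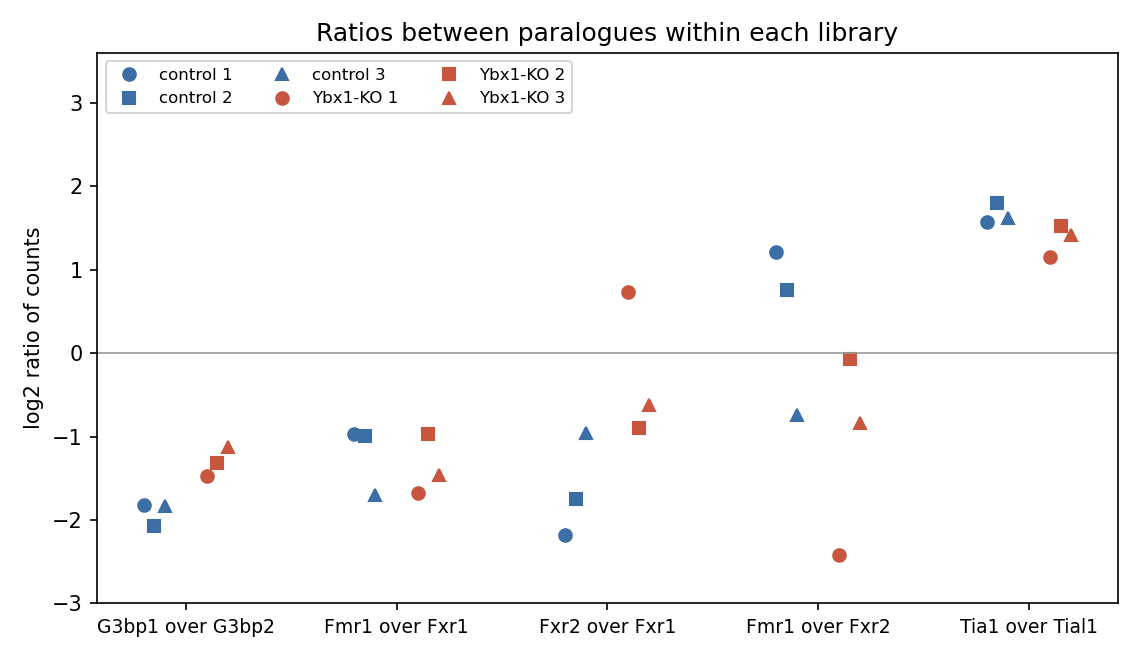
Log2 ratio of the counts of paralogues within each library, controls in blue and Ybx1-KO in red, with a marker shape for each library and the grey line at equal counts. The groups are apart for G3bp1 over G3bp2, Fxr2 over Fxr1 and Tia1 over Tial1, and the Fxr2 over Fxr1 ratio is above 0 only in Ybx1-KO 1.

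Exon length moved with the fold change in these libraries. Over the 21329 genes tested, Spearman's rho between union exon length and log2 fold change was -0.43, a description across genes, which share libraries and are not independent. The members were long, with a median of 8347 exon bases against 2691 for all genes tested. Offsets per library adjusted for exon length were a setting added after the data were seen. With them the members' median was -0.27 and 7 of them had a negative sign. The all-gene median was then 0.29, a gap of -0.56, and 8 of the 10 lay below it. Without the offsets the medians were -0.47 and 0.31. Taken as the difference of 2 fitted log2 fold changes, the shift between G3bp1 and G3bp2 was 0.60 without the offsets and 0.54 with them. That between Fxr2 and Fxr1 was 1.54 without and 1.46 with them, and that between Tia1 and Tial1 was -0.29 without and -0.069 with them. The part of length in each gene's value was not tested otherwise.

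**Figure D4:**
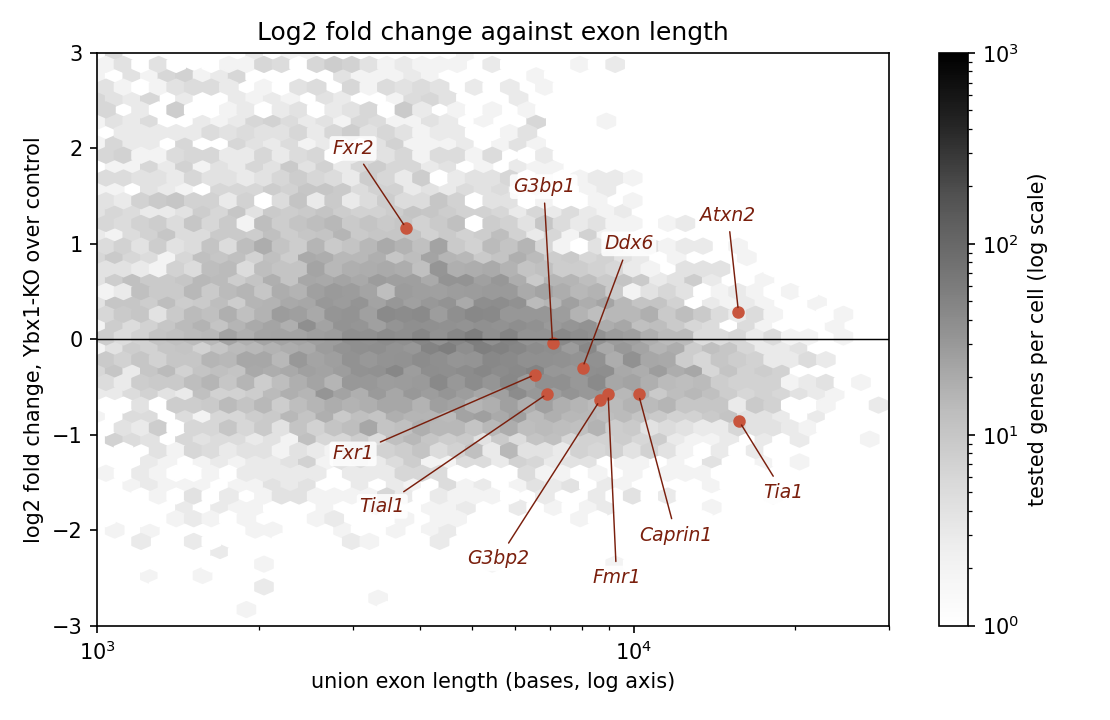
Log2 fold change, Ybx1-KO over control, against union exon length in bases (log axis), with grey cells for the number of tested genes (log scale) and red points for the 10 genes. The axes hold 14103 of the 21329 genes tested, those of 1000 to 30000 exon bases and a log2 fold change within 3 of 0, and Fxr2 is both the shortest and the highest of the 10.

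Levels were compared between genes as FPKM, the count per kilobase of union exons relative to all counts of that library. Caprin1 was the highest member in both groups, at 60.0 ± 15.6 FPKM (SD, n = 3) in controls and 44.5 ± 7.3 in Ybx1-KO, followed by G3bp2 at 43.9 ± 11.2 and 31.1 ± 6.0. In controls Ddx6 came next at 24.1 ± 4.8, then Fxr1 at 15.03 ± 3.0, G3bp1 at 14.2 ± 2.5, Tia1 at 13.1 ± 6.1, Tial1 at 9.53 ± 4.9, Fxr2 at 8.50 ± 2.0, Atxn2 at 6.27 ± 1.2 and Fmr1 at 5.00 ± 2.1 FPKM (SD, n = 3 each). Among the 9 neighbouring pairs of this order, G3bp2 over Ddx6 and Ddx6 over Fxr1 did not overlap, and the other 7 overlapped in at least 1 library. In Ybx1-KO only Caprin1 over G3bp2 did not overlap, and Fxr2 stood next after G3bp2 at 22.3 ± 14.7 FPKM, from 8.17 to 37.5 in single libraries. The annotation of Tia1 gives 15750 union exon bases but 4477 in its longest coding transcript. Per kilobase of the longest coding transcript, Tia1 came next after G3bp2 in controls, at 46.0 ± 21.3 (SD, n = 3), and overlapped G3bp2 and Fxr1.

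In edgeR with all libraries, the other genes of these granules gave no calls either, and Ybx1 was the only one of them called in any alternative setting. Of 20 other stress granule genes, all tested, 7 had a positive and 13 a negative log2 fold change, with a median of -0.094 and 0 called. Those named are Taf15, an RNA-binding protein, Stau2, a double-stranded RNA-binding protein, and Larp4b, a La-related protein. They were named because their p was among the smallest on their side of 0, which favours groups that lie apart. Taf15 had a log2 fold change of 0.77, Stau2 of -0.96 and Larp4b of -0.76, each with no overlap between the groups. Over the 20 genes, 2 were higher and 2 lower without overlap, beside 4.99% and 8.17% of all genes tested. Stau2 stood at 106, 81.3 and 89.1 CPM in the controls and at 54.7, 48.1 and 39.2 CPM in Ybx1-KO, with an adjusted p of 0.43 in edgeR.

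Of 27 other P-body and decapping genes, all tested, 10 had a positive and 17 a negative log2 fold change, with a median of -0.059 and 0 called. Lsm2 and Lsm6, subunits of the LSM ring, had log2 fold changes of 1.23 and 0.67, and Ago3, an Argonaute, and Xrn1, the 5′ to 3′ exonuclease, of -0.77 and -0.45. In Ybx1-KO 3, 27.4% of the Ago3 counts and 16.4% of the Xrn1 counts equalled the receptor-gene background per exon base. Lsm2 stood at 24.0, 39.7 and 50.6 CPM in the controls and at 128, 82.1 and 57.4 CPM in Ybx1-KO. Every Ybx1-KO library was above every control, and the adjusted p of Lsm2 was 0.41 in edgeR. Over the 27 genes, 2 were higher and 0 lower without overlap, beside 4.99% and 8.17% of all genes tested.

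Of 16 other cytoplasmic mRNP genes, Ybx1 among them, 4 had a positive and 12 a negative log2 fold change, with a median of -0.29 and 0 called in edgeR, while DESeq2 called 1, Ybx1. Igf2bp1 and Igf2bp2, mRNA-binding proteins of embryonic tissue, had log2 fold changes of 1.31 and 0.64, and Pura, a neuronal mRNP protein, of -0.97. Pura held only 37, 103 and 34 counts in the Ybx1-KO libraries. In Ybx1-KO 3, 64.7% of its counts equalled the receptor-gene background per exon base. Igf2bp1 stood at 34.6, 116 and 38.1 CPM in the controls and at 174, 189 and 103 CPM in Ybx1-KO, where Ybx1-KO 3 fell below control 2, and its adjusted p was 0.43 in edgeR.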

How the data were processed

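Read pairs of stranded total RNA libraries were counted on GENCODE genes by the authors with HTSeq 0.6.1p1, and the deposited values are raw counts per gene symbol, 1 table a library, without normalization or pooling. The submitters' processing notes name mm10 and GRCm38.p5. The aligner is not given in the sources used here. In R 4.3.3, counts were scaled by TMM, and genes whose mean FPKM passed 1 in at least 1 group (union exons of GENCODE M21, totals on genes) were tested with edgeR 4.0.16. Read pairs that the counter put on no gene were left out of library sizes, and 7.22% to 24.7% of read pairs were on genes. A gene with 3 counts stands at 0.126 to 0.632 CPM, and such limits cover counting error only. Of 51733 symbols, 3751 had no exon length. Alternatives were limma 3.58.1 (voom), DESeq2 1.42.0, 3 scalings, other filters, robust dispersion, receptor-background subtraction, leaving out libraries and, added later, exon-length offsets and coding transcript lengths. The tests were run on simulated counts with known changes to check the code. Their power at the spread of these data, a common biological coefficient of variation of 0.80, is not given here. All 10 members, the deleted gene and, per list, the 2 smallest p on each side were named, apart from 1 item that is not reported here. The members and lists were chosen with earlier results of these data known.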

Additional observations from a re-analysis of the deposited data

Results flagged for a closer look

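Values outside the main measurement stood above all controls in 2 Ybx1-KO libraries. Ybx1-KO 3 had 8.24 read pairs outside genes for each count on a gene, where the highest control had 2.00. Ybx1-KO 2 had 21.5 ambiguous read pairs for each 100 counts on genes, where the highest control had 11.1. Neither tally is used in the comparisons of the 10 genes, and their part in those values was not tested. Without Ybx1-KO 3 the members' median log2 fold change was -0.43 and that of all genes -0.16, and without Ybx1-KO 2 they were -0.48 and 0.30, against -0.47 and 0.31 with all libraries.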

How the results depend on the processing

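With 3 libraries a group, no member was called under any of the 24 alternatives, and 8 of the 10 kept the sign of their log2 fold change in all of them. The exceptions were G3bp1 and Ddx6. G3bp1 turned positive under DESeq2 (0.045), RLE scaling (0.045), upper quartile scaling (0.016), total counts (0.12), a filter of 1 CPM in 3 libraries (0.054; 0.15 when Ybx1-KO 3 was also left out), mean FPKM above 1 in both groups (0.078), receptor-background subtraction (0.0069) and exon-length offsets (0.12), and ranged from -0.20 to 0.11 when 1 library was left out. Ddx6 turned positive, at 0.019, with the filter of 1 CPM without Ybx1-KO 3. The members' median ranged from -0.62 to -0.27. The number of members lower without overlap was 1 under RLE and upper quartile scaling, with mean FPKM above 1 in both groups, after background subtraction and with the filter of 1 CPM without Ybx1-KO 3, 0 with total counts and with the filter of 1 CPM on all libraries, 3 with no filter, and 2 to 6 when a library was left out. The share of all genes lower without overlap was 5.26% to 8.68% under these scalings, filters and subtraction with all libraries, and 10.2% to 16.8% when a library was left out. Over all genes, DESeq2 called 118 higher and 96 lower and edgeR with no filter 113 and 80, and leaving out 1 library gave 0 to 531 higher and 0 to 247 lower. Of the ratios, Tia1 over Tial1 moved to -0.069 with exon-length offsets. Neighbouring members without overlap numbered 1 in controls without length scaling, and 2 in Ybx1-KO after background subtraction or per coding transcript. The cause of these changes was not tested.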
